A study of Mus musculus with 8 samples.

Results

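The genes described here are 10 genes of the basement membrane and of primitive endoderm: Col4a1, Col4a2, Nid1, Lama1, Lamb1, Lamc1, Thbd, Sparc, Gata6 and Sox17. They were chosen by name, and every probe set annotated to one of them alone was used, which gave 22 of the 45037 probe sets tested. The cells were mouse pre-iPSCs, cells that stall part of the way through reprogramming to induced pluripotent stem cells, grown in embryonic stem cell medium. They received siRNA for 3 days before RNA extraction and hybridisation to Affymetrix arrays. Control cells received siRNA to luciferase (3 arrays). The 3XHMT cells received siRNAs to Ehmt1, Ehmt2 and Setdb1 at once (2 arrays), which encode the histone H3 lysine 9 methyltransferases GLP, G9a and SETDB1. The Cbx3 cells received siRNA to Cbx3 (3 arrays), which encodes HP1gamma, a protein that binds methylated lysine 9. All groups were described as the same kind of cells in the same medium. The arrays are labelled biological replicates, and nothing in the labels says what was repeated, so that p-values measure the spread between these arrays. No passage number, line or clone is given, and residual target protein was not measured.

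A basement membrane is a thin sheet of extracellular matrix under epithelia. Laminin trimers of an alpha, a beta and a gamma chain polymerise at the cell surface, collagen IV forms a second network, and nidogen links both. In the early mouse embryo, primitive endoderm is specified beside the pluripotent epiblast under the transcription factors GATA6, GATA4 and SOX17. Its parietal derivative secretes large amounts of collagen IV, laminin-111, nidogen and SPARC into Reichert's membrane, and also makes thrombomodulin, the product of Thbd. These genes are therefore commonly used as markers of that lineage, although fibroblasts and endothelial cells make many of the same matrix proteins.

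In mouse GRCm38.p6, Col4a1 (chr8:11198423-11312889) and Col4a2 (chr8:11312805-11449287) lie head to head and are transcribed in opposite directions. The RefSeq promoter windows, 250 bases before to 50 bases after a start site, are shown for this pair because the mean of both genes was lowest in 3XHMT cells, as described below. The Col4a1 window (chr8:11312777-11313076, minus strand) and the Col4a2 window (chr8:11312555-11312854, plus strand) overlap. Capitals mark the 78 bases that they share, read on opposite strands, and the start sites are 21 bases apart.

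Col4a1: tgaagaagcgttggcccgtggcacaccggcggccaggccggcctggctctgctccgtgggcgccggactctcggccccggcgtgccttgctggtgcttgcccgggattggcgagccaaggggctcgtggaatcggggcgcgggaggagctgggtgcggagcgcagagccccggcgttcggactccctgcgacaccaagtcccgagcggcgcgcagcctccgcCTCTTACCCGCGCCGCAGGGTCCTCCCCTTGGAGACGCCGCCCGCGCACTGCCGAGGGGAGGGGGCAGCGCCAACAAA

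Col4a2: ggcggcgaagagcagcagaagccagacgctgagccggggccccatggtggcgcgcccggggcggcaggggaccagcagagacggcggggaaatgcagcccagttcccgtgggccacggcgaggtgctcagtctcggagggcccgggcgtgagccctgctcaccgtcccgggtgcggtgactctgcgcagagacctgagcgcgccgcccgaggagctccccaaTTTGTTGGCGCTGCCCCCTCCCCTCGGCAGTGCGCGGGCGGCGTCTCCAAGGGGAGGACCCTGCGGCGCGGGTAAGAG

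The Col4a1 window held 37 CpG dinucleotides and the Col4a2 window 33, against a median of 7 over 32851 RefSeq windows of this length. The windows of Nid1 (chr13:13437352-13437651, plus strand) and Lamb1 (chr12:31265043-31265342, plus strand) are also shown. Only these members were called lower in Cbx3 than in control cells, Lamb1 only in some fits and at some of its probe sets. Capitals mark matches to a GC box, GGGCGG, searched on both strands. They also mark matches to the CCAAT box, searched in the same way.

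Nid1: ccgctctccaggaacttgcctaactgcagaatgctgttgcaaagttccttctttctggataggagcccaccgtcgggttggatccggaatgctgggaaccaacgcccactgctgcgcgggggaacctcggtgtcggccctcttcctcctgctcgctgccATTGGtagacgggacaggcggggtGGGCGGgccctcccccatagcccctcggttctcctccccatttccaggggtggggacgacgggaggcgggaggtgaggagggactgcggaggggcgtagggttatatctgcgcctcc

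Lamb1: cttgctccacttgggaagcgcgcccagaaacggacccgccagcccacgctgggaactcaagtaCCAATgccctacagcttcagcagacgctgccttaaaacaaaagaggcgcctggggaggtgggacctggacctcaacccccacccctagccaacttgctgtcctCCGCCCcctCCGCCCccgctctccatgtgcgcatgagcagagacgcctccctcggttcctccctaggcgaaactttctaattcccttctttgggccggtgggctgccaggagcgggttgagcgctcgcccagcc

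The Nid1 window held 20 CpG and 1 match to each motif, and the Lamb1 window 18 CpG, 2 matches to GGGCGG and 1 to CCAAT. The Col4a1 window also held 1 match to each, and the Col4a2 window 3 to GGGCGG and 1 to CCAAT. The Sparc window held 4 CpG and 0 matches to either motif. Over all windows, 35.7% held GGGCGG and 37.4% held CCAAT. A match is a run of letters and not a measured binding site. TATAAA, held by 13.6% of all windows, was in none of the 5 members' windows searched (Col4a1, Col4a2, Nid1, Lamb1 and Sparc). The other members lie at chr17:67697127-67822645 (Lama1), chr1:153218922-153332786 (Lamc1), chr2:148404471-148408188 (Thbd), chr11:55394159-55420080 (Sparc), chr18:11052510-11085636 (Gata6) and chr1:4490928-4497426 (Sox17).

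All values are log2 signals after RMA, which corrects background, makes the distributions of the arrays equal and summarises the probes of a probe set. A difference of 1 is a doubling. At signals below the array median unspecific hybridisation can take up much of a value, so a difference in which 1 group lies there (as for Thbd, Lama1, Col4a5, Dppa4 and Nanog) may understate the change and is given on the log2 scale only. Differences were tested with limma over all 45037 probe sets, two-sided, and called at a Benjamini-Hochberg adjusted p under 0.05. Array medians were 5.87 to 5.9. The arrays fell into 3 tiers by the signal of an 18S ribosomal RNA control probe set, a technical measure that the labels do not explain: a high tier at 12.6 to 12.8 (control 2, 3XHMT 1, Cbx3 2), a middle tier at 11.2 to 11.5 (control 1, Cbx3 1) and a low tier at 9.98 to 10.2 (control 3, 3XHMT 2, Cbx3 3). Over all probe sets, deviations from the group mean correlated at 0.51 to 0.74 between arrays of 1 tier and at -0.66 to 0.22 between arrays of different tiers. Deviations sum to 0 within a group, which lowers the values between tiers, and those of the 2 3XHMT arrays mirror each other. The contrast between these ranges is thus partly fixed in advance. Each difference is also given with the tier as a block, and within tiers. The tier was not tested as a cause of any difference. Of the siRNA targets, 2 bright Cbx3 probe sets passed the test in Cbx3 cells (2.34-fold lower at 1416884_at, adjusted p = 0.045, and 2.64-fold lower at 1439421_x_at, adjusted p = 0.047, limma). Another bright one, 1448504_a_at, was 2.28-fold lower and missed the test (adjusted p = 0.052, limma). These bright probe sets also match the pseudogene Cbx3-ps5. The dim ones at 1432628_at and 1454305_at were lower by 0.27 and 0.34 on the log2 scale and were not called. In 3XHMT cells the brightest probe sets were lower by 0.66 (Setdb1), 0.58 (Ehmt2) and 0.33 (Ehmt1) on the log2 scale, none past the test.

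Of the 22 member probe sets, 0 were called between 3XHMT and control cells (4 at an unadjusted p under 0.05), where 0.0555% of all probe sets were called. Between Cbx3 and control cells 1 was called, a Nid1 probe set, beside 0.0777% of all. Between 3XHMT and Cbx3 cells 2 were called, a Nid1 and a Thbd probe set, beside 0.528% of all. With the tier as a block the counts were 2 (Col4a2 and Thbd), 4 (1 of Nid1 and 3 of Lamb1) and 9 (of Col4a1, Col4a2, Nid1, Lama1, Lamb1 and Thbd). That fit called more of all probe sets as well, at 0.699%, 3.43% and 4.66%. The median difference over the 22 probe sets was -0.05, -0.06 and 0.05 in these comparisons, against medians within 0.0046 of 0 over all probe sets. The arrays of the groups did not overlap at 5 of the 22 probe sets between 3XHMT and control cells (15.4% of all probe sets), at 2 between Cbx3 and control cells (11.9%) and at 10 between 3XHMT and Cbx3 cells (23.4%). The genes did not move as 1 group: collagen IV and Thbd were lowest in 3XHMT cells, Nid1 and Lamb1 were lowest in Cbx3 cells, and Lama1 was highest in 3XHMT cells.

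**Figure D1:**
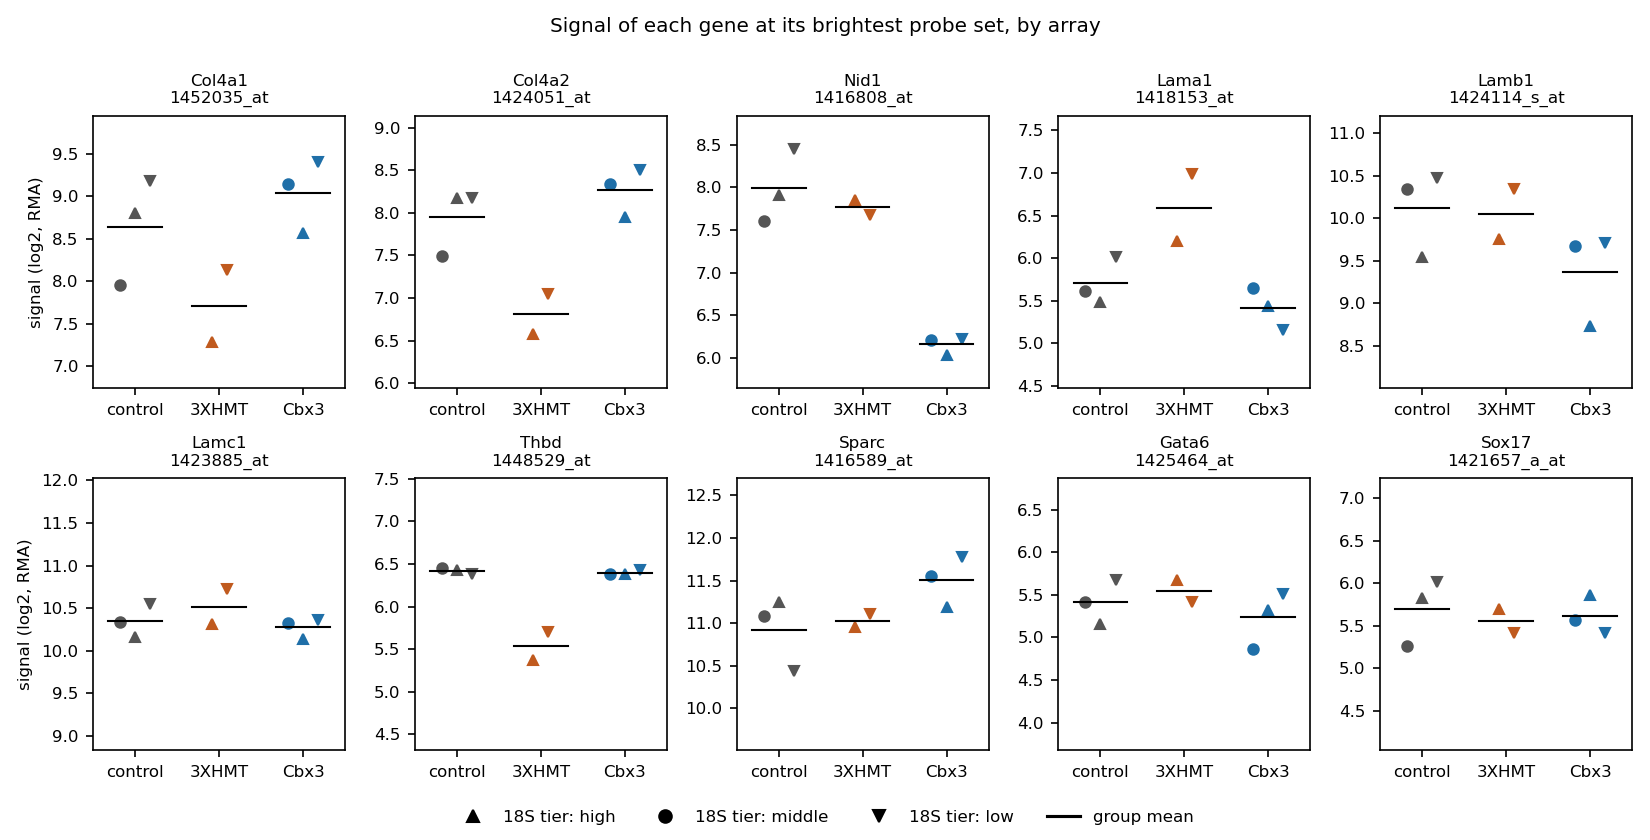
Log2 signal (vertical axis) of each gene at its brightest probe set on the 8 arrays by siRNA group, with symbols for the 18S tier and a line at the group mean; the scales differ between panels. The 3 Cbx3 arrays of Nid1 sit between 6.03 and 6.23, below every control and 3XHMT array, and the 2 3XHMT arrays of Thbd sit at 5.37 and 5.70, below every other array.

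Collagen IV, a trimer of 2 alpha1 chains and 1 alpha2 chain, was represented by 3 probe sets, all lower on average in 3XHMT cells. The brightest Col4a1 probe set (1452035_at) read 7.95, 8.80 and 9.18 in control cells, 7.29 and 8.13 in 3XHMT cells and 9.14, 8.57 and 9.40 in Cbx3 cells. One 3XHMT array thus lay above the lowest control. At a second Col4a1 probe set (1426348_at), which carries the same transcript accession, the values were 6.99, 7.68 and 7.63 in control cells, 6.21 and 6.82 in 3XHMT cells and 7.72, 7.44 and 8.0 in Cbx3 cells. There both 3XHMT arrays lay below all others. Col4a2 (1424051_at) read 7.49, 8.17 and 8.18 in control cells, 6.58 and 7.04 in 3XHMT cells and 8.34, 7.95 and 8.50 in Cbx3 cells, and again both 3XHMT arrays lay below all others.

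The differences of 3XHMT from control cells were -0.93 ± 0.41 (SE) and -0.92 ± 0.28 for Col4a1 and -1.14 ± 0.27 for Col4a2. None passed the test (limma adjusted p = 1.00, 0.772 and 0.457). With the tier as a block Col4a2 fell 2.35-fold (log2 difference -1.23, adjusted p = 0.040, limma), while Col4a1 differed by -1.08 (adjusted p = 0.144) and -1.03 (adjusted p = 0.072). Col4a2 was called in 3 of the 8 fits with the tier that left out 1 array, and lost the call without control 2, control 3, 3XHMT 1, 3XHMT 2 or Cbx3 3. The Col4a1 probe sets were each called in 2 such fits, those without control 1 and without Cbx3 1, which are the same fit. Within the low tier 3XHMT minus control was -1.05 and -0.81 for the Col4a1 probe sets and -1.14 for Col4a2, and within the high tier -1.51, -1.47 and -1.6. The middle tier holds no 3XHMT array, and its control array had the lowest of the 3 control values at all 3 probe sets.

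Against Cbx3 cells, collagen IV was 2.51-fold and 2.30-fold lower (Col4a1) and 2.74-fold lower (Col4a2) in 3XHMT cells, without passing the test (limma adjusted p = 0.311, 0.150 and 0.076). With the tier as a block all 3 probe sets were called (adjusted p = 0.015, 0.008 and 0.004, limma). Of these the Col4a2 call was kept in all 8 fits that left out 1 array, that at 1426348_at in 7 and that at 1452035_at in 5. Col4a2 was also called when each gene was taken at its brightest probe set (adjusted p = 0.038, limma), a fit that called 1.51% of all genes. Cbx3 minus control was 0.39 and 0.28 for Col4a1 and 0.32 for Col4a2, with 95% intervals from -0.45 to 1.24, from -0.28 to 0.85 and from -0.23 to 0.86. The Cbx3 and control arrays overlapped at each of these probe sets.

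Laminin-111, the laminin of the early embryo, is built of the products of Lama1, Lamb1 and Lamc1. Lama1 (1418153_at), the alpha chain that carries the main cell binding domains, read 5.61, 5.49 and 6.01 in control cells, 6.20 and 6.98 in 3XHMT cells and 5.65, 5.44 and 5.16 in Cbx3 cells. Both 3XHMT arrays lay above all others. Several control and Cbx3 values were below the array median. 3XHMT minus control was 0.88 ± 0.26 (SE; limma adjusted p = 0.769, or 0.159 when the tier was a block), called with the tier in 1 of 8 fits that left out 1 array, that without Cbx3 3, and at 0.97 within the low tier and 0.71 within the high tier. 3XHMT minus Cbx3 was 1.17 ± 0.26 (limma adjusted p = 0.142), and with the tier as a block it was 1.21 and passed (adjusted p = 0.020, limma; called in 7 of 8 fits that left out 1 array, not without 3XHMT 2). Cbx3 minus control was -0.29 with a 95% interval from -0.83 to 0.26.

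Lamb1 encodes the beta1 chain, shared by most laminins of embryonic and many adult tissues. Its brightest probe set (1424114_s_at) read 10.34, 9.54 and 10.48 in control cells, 9.75 and 10.34 in 3XHMT cells and 9.68, 8.73 and 9.70 in Cbx3 cells. The control arrays overlapped with those of both knockdowns, while both 3XHMT arrays lay above all Cbx3 arrays, and the array of the high tier was the lowest in each group. Set against the array of its own tier, each Cbx3 array was lower than the control, by 0.77 in the low tier, 0.81 in the high tier and 0.67 in the middle tier. The same held at 1424113_at, with values of 7.51, 6.52 and 7.43 in control cells, 6.51 and 7.32 in 3XHMT cells and 6.79, 5.42 and 6.47 in Cbx3 cells. It also held at 1451241_at, with 7.31, 6.57 and 6.71 in control cells, 6.48 and 7.11 in 3XHMT cells and 6.47, 6.04 and 6.20 in Cbx3 cells. These 3 probe sets carry the same transcript accession and are not independent measures.

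Without the tier none of the Lamb1 probe sets passed the test between Cbx3 and control cells (differences of -0.75, -0.93 and -0.63, limma adjusted p = 0.724, 0.710 and 0.599). With the tier as a block the differences were of the same size, and Lamb1 fell 1.68-fold at 1424114_s_at (adjusted p = 0.009, limma), 1.90-fold at 1424113_at (adjusted p = 0.004) and 1.55-fold at 1451241_at (adjusted p = 0.037). In control and Cbx3 cells the tiers coincide with the replicate numbers, and a fit of these 6 arrays with the replicate number as a block called the same 4 member probe sets (and 3.94% of all probe sets). Leaving out 1 array at a time with the tier as a block, the call at 1424113_at was kept in 8 of 8 fits, that at 1424114_s_at in 7 (not without control 3) and that at 1451241_at in 3 (not without control 1, control 2, control 3, Cbx3 1 or Cbx3 3). For Cbx3 minus control these 8 fits are not all distinct. Leaving out either array of the middle tier gives the same fit, and leaving out either 3XHMT array gives the fit of control and Cbx3 arrays alone. 3XHMT minus control at 1424114_s_at was -0.07 with a 95% interval from -0.95 to 0.81, and 0.06 with the tier as a block. Against Cbx3 cells the 3XHMT cells were higher at the 3 probe sets by 0.81, 0.92 and 0.73 with the tier as a block (adjusted p = 0.010, 0.005 and 0.032, limma). The dimmest Lamb1 probe set (1446180_at) lay below the array median on every array (4.14 to 4.89). There Cbx3 minus control had the opposite sign, at 0.26 (limma adjusted p = 0.958, 0.454 with the tier) and at 0.56, 0.10 and 0.11 within the low, high and middle tier.

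Lamc1, the gamma1 chain found in most laminins, was among the brighter members and did not pass the test in any comparison, with or without the tier. At 1423885_at it read 10.34, 10.16 and 10.54 in control cells, 10.32 and 10.72 in 3XHMT cells and 10.32, 10.14 and 10.36 in Cbx3 cells. The 95% interval for 3XHMT minus control ran from -0.22 to 0.56 and that for Cbx3 minus control from -0.42 to 0.28, so that a doubling lies outside both. The second probe set (1423886_at) ranged from 7.02 to 8.02 with overlapping groups.

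**Figure D2:**
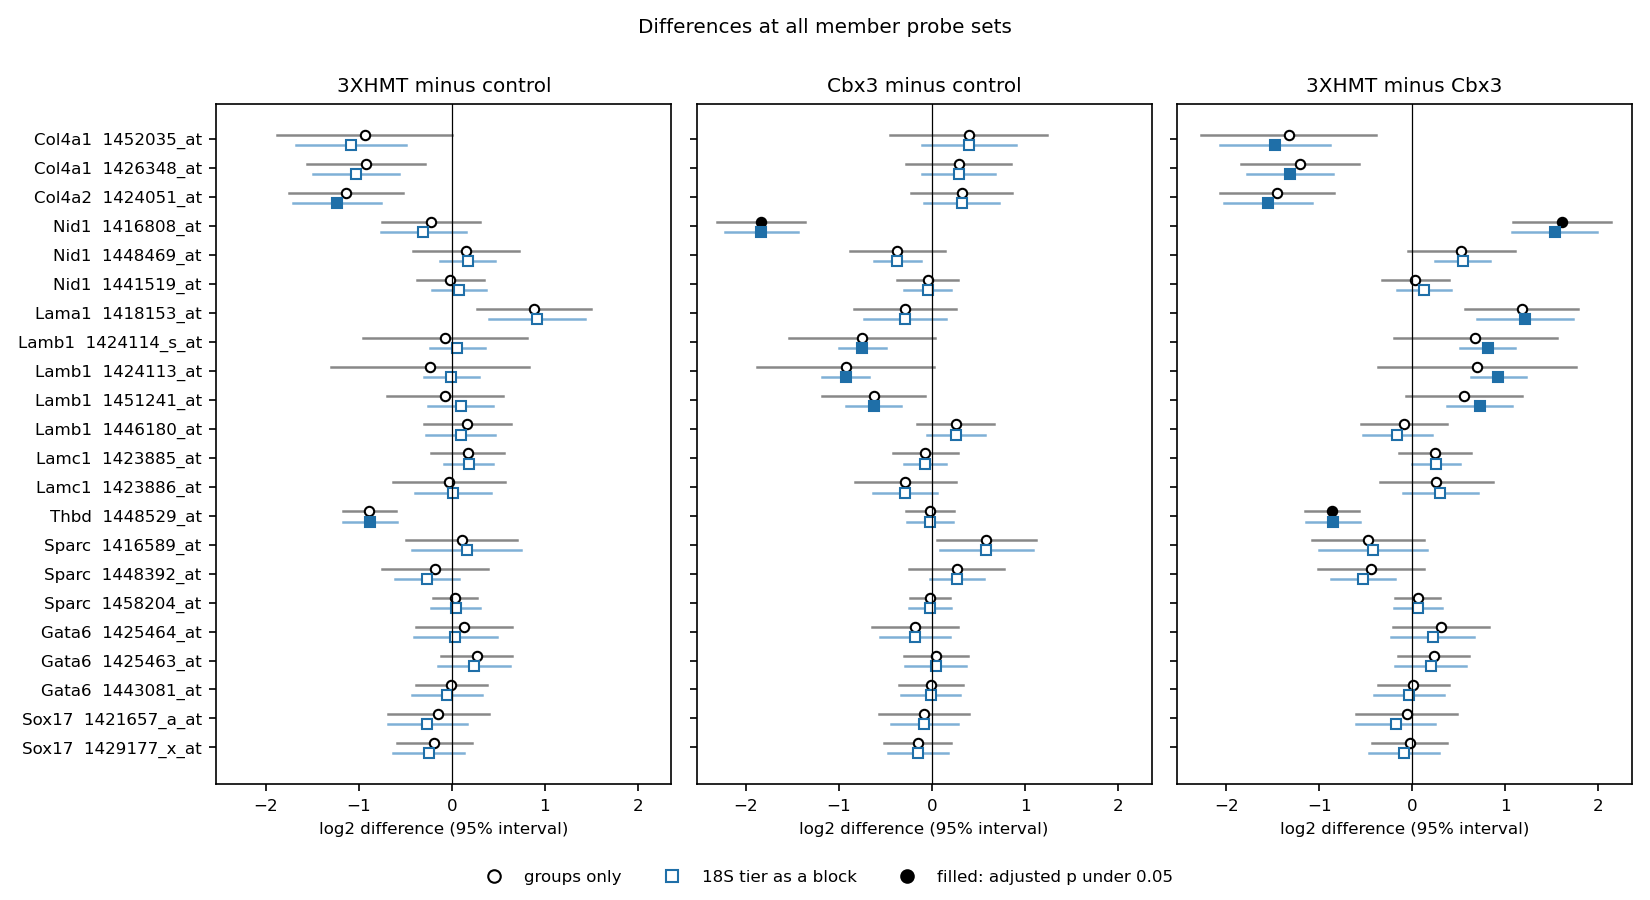
Log2 differences (horizontal axis) with 95% intervals for all 22 probe sets in the 3 comparisons, from limma with groups only (circles) and with the 18S tier as a block (squares), filled where the adjusted p is under 0.05. Nid1 at 1416808_at is filled in both fits for Cbx3 minus control, whereas 3 Lamb1 probe sets are filled only with the tier, where their intervals are narrower around the same differences.

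Nidogen-1, the product of Nid1, bridges laminin gamma1 and collagen IV, and its main probe set gave the largest difference of any member. At 1416808_at Nid1 read 7.61, 7.91 and 8.46 in control cells, 7.86 and 7.68 in 3XHMT cells and 6.21, 6.03 and 6.23 in Cbx3 cells. All 3 Cbx3 arrays lay more than 1 unit below every other array, and control and 3XHMT arrays overlapped. Nid1 fell 3.57-fold in Cbx3 cells (log2 difference -1.84 ± 0.20 (SE), limma adjusted p = 0.045). Within tiers the difference was -2.23 in the low tier, -1.89 in the high tier and -1.39 in the middle tier, and with the tier as a block the adjusted p was 0.001 (limma). Without the tier the call did not outlast the loss of any array: in the 8 fits that left out 1 array the difference was -2.03 to -1.6 and the adjusted p 0.061 to 0.2. With the tier it was kept in 8 of 8 fits, not all of them distinct, as for Lamb1. Nid1 was also called with each gene at its brightest probe set (adjusted p = 0.018, limma), a fit that called 0.445% of all genes.

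Against 3XHMT cells Nid1 was 3.05-fold lower in Cbx3 cells (limma adjusted p = 0.035, or 0.004 when the tier was a block). Without the tier this call was kept in 2 of the 8 fits that left out 1 array, those without control 1 and without control 3. 3XHMT minus control was -0.22 with a 95% interval from -0.75 to 0.30. A second Nid1 probe set (1448469_at), which carries the same transcript accession, read 6.34, 6.55 and 6.10 in control cells, 6.68 and 6.28 in 3XHMT cells and 6.01, 6.32 and 5.53 in Cbx3 cells. It was lower in Cbx3 than in control cells within each tier, by 0.57, 0.22 and 0.33, but the difference of -0.37 is much smaller than at the first probe set and was not called (limma adjusted p = 0.893, 0.128 with the tier). The 2 probe sets of Nid1 thus gave the same sign and unequal sizes. The dimmest (1441519_at) lay at 2.77 to 3.17 on all arrays.

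**Figure D3:**
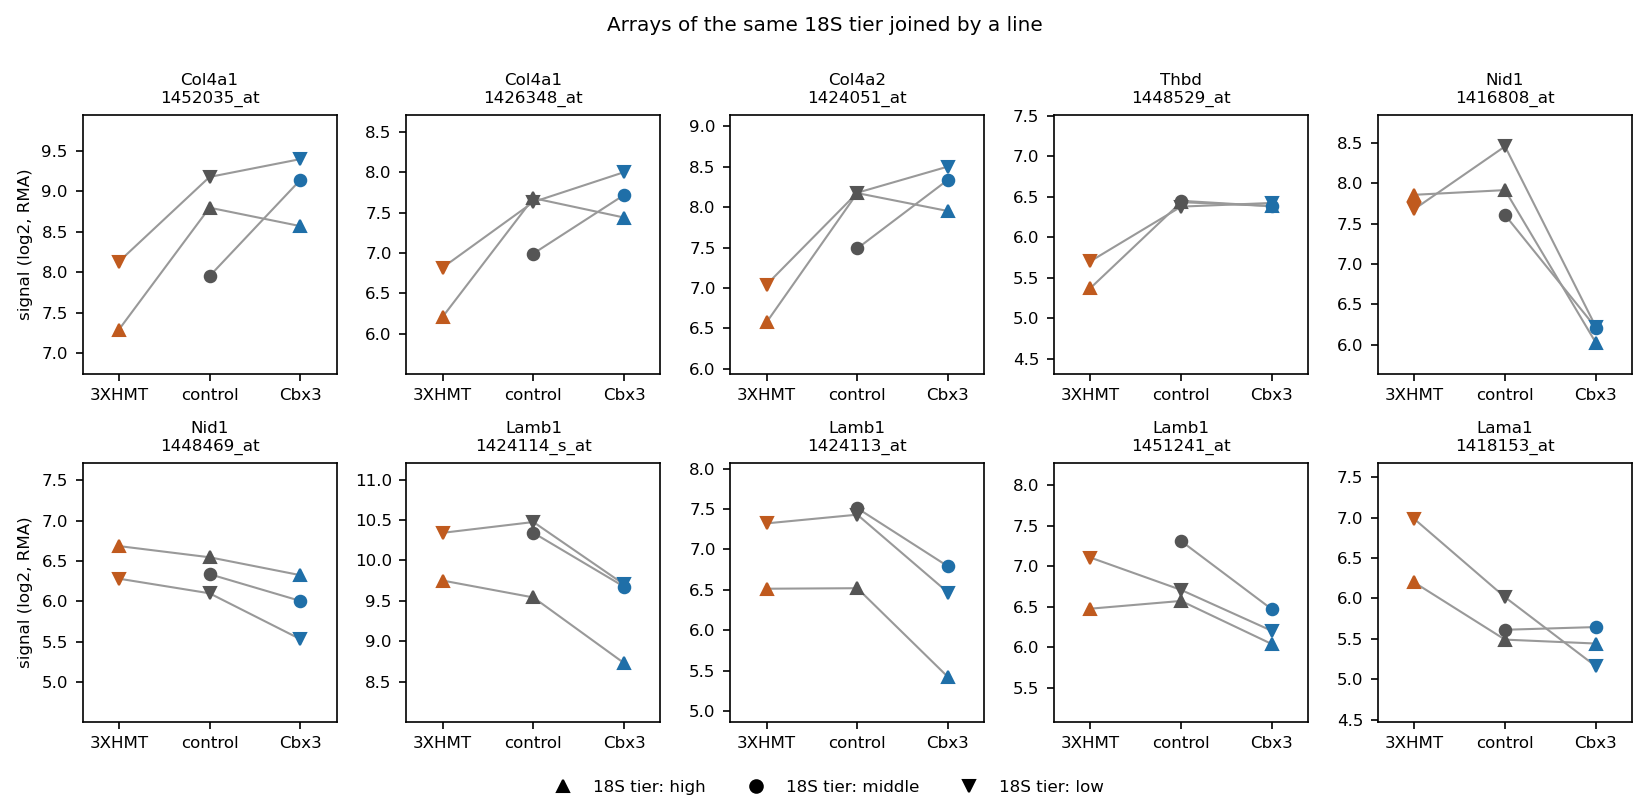
Log2 signal (vertical axis) by group for the probe sets of Col4a1, Col4a2, Thbd and Lama1, the 3 brighter ones of Lamb1 and the 2 brighter ones of Nid1, with lines joining arrays of the same 18S tier. The 3 lines from control to Cbx3 fall at each of these probe sets of Nid1 and Lamb1, and both lines from 3XHMT to control rise for Col4a1, Col4a2 and Thbd.

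Sparc encodes a collagen-binding glycoprotein of the extracellular matrix. It was among the brightest members and was not called in any comparison in the fits of all 8 arrays, with or without the tier. At 1416589_at Sparc read 11.09, 11.25 and 10.44 in control cells, 10.96 and 11.10 in 3XHMT cells and 11.56, 11.19 and 11.78 in Cbx3 cells. At 1448392_at it read 10.78, 10.99 and 11.25 in control cells, 10.69 and 10.97 in 3XHMT cells and 11.16, 10.93 and 11.73 in Cbx3 cells. Control 3 was the lowest control at the first and the highest at the second. That array also had the largest difference between the 3' and 5' probe sets of beta-actin, a measure of RNA integrity (0.60, against 0.17 to 0.28 on the other 7), and its part in the Sparc values was not tested. Cbx3 minus control was 0.58 ± 0.23 (SE) at the first probe set (limma adjusted p = 0.621, 0.236 with the tier) and 0.27 ± 0.22 at the second (limma adjusted p = 0.996). Within tiers the difference at the first was 1.34, -0.06 and 0.47 in the low, high and middle tier. At the second, 3XHMT minus Cbx3 was -0.53 with the tier as a block (adjusted p = 0.097, limma) and was called in 1 of the 8 fits with the tier that left out 1 array, that without Cbx3 2 (adjusted p = 0.033). The dimmest probe set lay between 6.22 and 6.38.

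Thbd encodes thrombomodulin, a membrane receptor that binds thrombin and is abundant on endothelium and parietal endoderm. Its single probe set (1448529_at) read 6.45, 6.43 and 6.38 in control cells, 5.37 and 5.70 in 3XHMT cells and 6.38, 6.39 and 6.42 in Cbx3 cells. The control and Cbx3 arrays thus lay between 6.38 and 6.45, and both 3XHMT arrays lay below them and below the array median. The log2 difference of 3XHMT from control cells was -0.88 ± 0.13 (SE), which did not pass the test (limma adjusted p = 0.089). That from Cbx3 cells was -0.86 ± 0.13 and passed (limma adjusted p = 0.037).

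Both Thbd comparisons passed with the tier as a block (adjusted p = 0.022 and 0.007, limma) and with each gene at its brightest probe set (adjusted p = 0.045 and 0.021, limma; 0.231% and 1.51% of all genes were called). Within tiers 3XHMT minus control was -0.68 and -1.06. Without the tier the call against Cbx3 cells was kept in 0 of the 8 fits that left out 1 array (adjusted p = 0.058 to 0.196) and missed with the replicate number as a block (adjusted p = 0.050, limma). With the tier it was kept in 7 of 8 (not without 3XHMT 1), and the call against control cells in 5 (not without control 2, control 3 or 3XHMT 1). Cbx3 minus control was -0.02 with a 95% interval from -0.28 to 0.24.

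Gata6 and Sox17, the transcription factors among the members, were near or below the array median and did not pass the test in any comparison. Gata6 at its brightest probe set (1425464_at) read 5.42, 5.15 and 5.68 in control cells, 5.67 and 5.42 in 3XHMT cells and 4.87, 5.33 and 5.51 in Cbx3 cells, below the median of the array on every one. Its other probe sets lay at 4.87 to 5.44 and 3.99 to 4.5. Sox17 (1421657_a_at) read 5.26, 5.82 and 6.01 in control cells, 5.69 and 5.41 in 3XHMT cells and 5.57, 5.86 and 5.42 in Cbx3 cells. Its other probe set lay at 3.12 to 3.71. The arrays of all groups overlapped at the brightest probe set of both genes. At this level a signal cannot be told from unspecific hybridisation, so that a change could be missed.

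The label of primitive endoderm was checked against its other markers. In a list of 24 further measured genes of primitive endoderm and its derivatives, 19 were below the array median on every array, among them Gata4 (4.98 to 5.59), Sox7 (3.99 to 4.39), Foxa2 (5.14 to 5.63), Pdgfra (4.95 to 5.67) and Dab2 (5.07 to 5.44). The 5 others were Srgn (12.3 to 13.3), a proteoglycan gene also active in blood cells, Ttr (7.03 to 7.28), Hnf4a (6.21 to 6.56), Amn (5.56 to 6.44) and Apoa1 (5.56 to 6.15). Of their 52 probe sets 0 were called in any of the 3 comparisons with limma, with or without the tier as a block. At an unadjusted level the lowest p in each comparison fell to Spink1, Fst and Cubn, with differences of -0.29 (3XHMT minus control), 0.46 (Cbx3 minus control) and 0.41 (3XHMT minus Cbx3). Pluripotency markers ranged widely. Pou5f1 lay at 12.6 to 13.2 and Tdgf1 at 10.4 to 11.5, but Esrrb lay at 6.10 to 6.88. Nanog (4.87 to 9.28), Dppa4 (5.08 to 8.61) and Lin28a (3.66 to 6.10) were below the array median on some arrays. Col4a1, Col4a2, Nid1, Lamb1, Lamc1 and Sparc at their brightest probe sets were thus above the array median in cells in which Gata4, Gata6, Sox7 and Sox17 were near or below it, and they are called basement membrane genes here.

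Markers of other matrix-producing cells were also examined. The mean of 12 fibroblast markers was 6.28 to 6.40 on control arrays, 6.29 to 6.41 on 3XHMT arrays and 6.34 to 6.45 on Cbx3 arrays, with 6 of the 12 below the array median on every array. Col1a1 lay at 5.13 to 5.47 and Postn at 4.40 to 5.08, whereas Fn1, a matrix gene of many cell types, lay at 11.5 to 12.7 and S100a4 at 10.1 to 11.7. Col1a2, Col3a1, Thy1 and Dcn were above the median on at least 1 array. The mean of 11 endothelial markers was 5.42 to 5.58, 5.6 to 5.68 and 5.56 to 5.67, and 6 of the 11 were below the median on every array, among them Pecam1 (3.54 to 4.34) and Cdh5 (4.46 to 4.87). The other 5 were Eng (7.37 to 7.91), Kdr (6.95 to 7.28), Esam (6.53 to 8.18), Flt1 (6.24 to 6.92) and Tek (5.27 to 7.98). The mean of 12 pluripotency markers was 8.22 to 8.69 in control cells, 9.13 to 9.50 in 3XHMT cells and 8.55 to 8.94 in Cbx3 cells. It was thus higher on both 3XHMT arrays than on any other, in the group with the lowest means of collagen IV and Thbd. The median difference over the 22 probe sets of that list was 0.13 between 3XHMT and control cells, with 18 higher. The higher mean thus rests largely on the few large rises given below. The part of pluripotent cells in the collagen IV and Thbd values was not tested. In bulk RNA fewer cells of a type and less RNA per cell cannot be told apart. Of the pluripotency list Dppa4 rose by 2.56 on the log2 scale in 3XHMT cells (adjusted p = 0.027, limma) and Nanog by 3.31 in Cbx3 cells (adjusted p = 0.043, limma). Nanog was also 2.81 higher in 3XHMT than in control cells (limma adjusted p = 0.089, 0.005 with the tier). Zfp42 was 3.09 higher there (limma adjusted p = 0.109, 0.000286 with the tier).

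In a list of 24 other basement membrane genes with 44 probe sets, 0 were called against control cells in either knockdown. Between 3XHMT and Cbx3 cells 1 was higher and 1 lower in 3XHMT cells. The higher one was Lama3, the alpha chain of the laminin under stratified epithelia. Lama3 (1427512_a_at) read 7.61, 8.07 and 8.13 in control cells, 9.68 and 9.22 in 3XHMT cells and 7.01, 6.86 and 7.25 in Cbx3 cells, without overlap of any groups. It was 5.32-fold higher in 3XHMT than in Cbx3 cells (adjusted p = 0.009, limma). The difference from control was 1.52 in 3XHMT cells (limma adjusted p = 0.089, 0.018 with the tier) and -0.90 in Cbx3 cells (limma adjusted p = 0.194, 0.024 with the tier).

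The lower one was Col4a5, a collagen IV chain of specialised basement membranes. Col4a5 (1425476_at) read 6.49, 6.12 and 6.41 in control cells, 5.78 and 5.55 in 3XHMT cells and 7.29, 7.05 and 7.70 in Cbx3 cells, in the order 3XHMT, control, Cbx3 that collagen IV chains alpha1 and alpha2 also had in their means. 3XHMT minus Cbx3 was -1.68 (adjusted p = 0.024, limma). At a second Col4a5 probe set (1425475_at) the sign was the same and the size smaller. There 3XHMT minus Cbx3 was -0.67, not called without the tier (limma adjusted p = 0.077), and Cbx3 minus control was 0.33. With the tier as a block 6 probe sets of the list rose and 3 fell in Cbx3 cells. Those that rose were of Col4a5 (by 1.01), Col18a1 (1.03 and 1.00), Lama5 (0.80 and 0.72) and Tinagl1 (0.49), and those that fell were of Lama3 and Lama4 (-0.82 and -0.79). In 3XHMT cells Lama3 rose and Ntn4, a netrin that binds laminin, fell (by 1.05, adjusted p = 0.038, limma with the tier). Npnt, an integrin ligand of basement membranes, was 0.95 lower in 3XHMT cells without passing the test (limma adjusted p = 0.789).

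Genes that fold, secrete or crosslink collagen IV (16 genes, 25 probe sets) had 0 calls without the tier in the 3 comparisons. With the tier, 2 probe sets of Plod2, a collagen lysyl hydroxylase, rose in Cbx3 cells (by 0.89 and 1.22, adjusted p = 0.018 and 0.032, limma). Pxdn, the peroxidase that forms the sulfilimine crosslinks of collagen IV, fell by 0.83 (adjusted p = 0.009, limma). Serpinh1, the collagen chaperone HSP47, read 10.99, 11.01 and 10.62 in control cells, 10.52 and 10.24 in 3XHMT cells and 11.01, 10.97 and 10.84 in Cbx3 cells. Its 3XHMT arrays lay below all others, but 3XHMT minus control (-0.49 ± 0.16 (SE)) was not called (limma adjusted p = 0.889, 0.196 with the tier).

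Of 41 probe sets of 13 receptors for basement membrane proteins, 0 were called without the tier in the 3 comparisons. With it, 2 probe sets of Itga3, a laminin-binding integrin chain, rose in Cbx3 cells (by 0.82 and 0.67, adjusted p = 0.004 and 0.011, limma), and 1 of Itga6, another laminin-binding chain, fell (by 0.60, adjusted p = 0.039). Among 8 genes of the thrombin pathway Procr, the endothelial protein C receptor that works with thrombomodulin, was higher in both knockdowns. Procr (1420664_s_at) read 5.0, 4.69 and 4.57 in control cells, 5.54 and 5.65 in 3XHMT cells and 5.58, 5.79 and 5.5 in Cbx3 cells, below the array median on all arrays. The differences of 0.84 and 0.87 were called only with the tier (adjusted p = 0.041 and 0.009, limma).

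**Figure D4:**
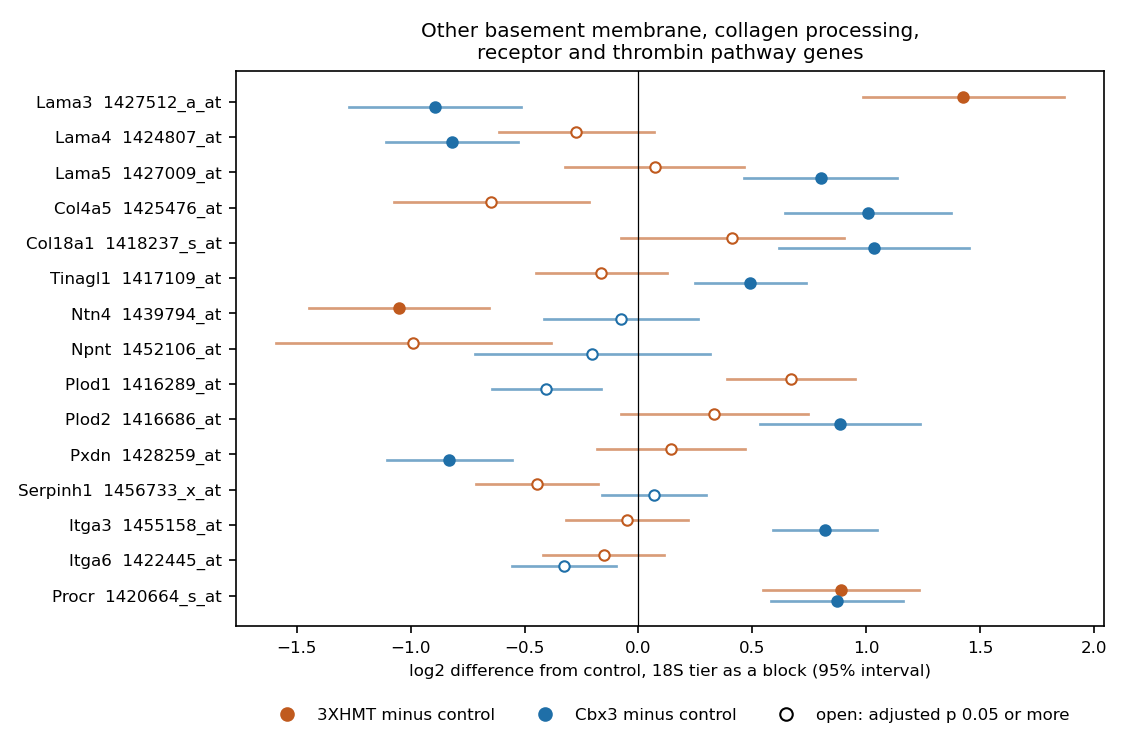
Log2 differences from control (horizontal axis) with 95% intervals, from limma with the 18S tier as a block, for genes of the lists of other basement membrane components, collagen processing, receptors and the thrombin pathway. Each gene is shown at 1 probe set, that with its lowest p in any comparison of the limma fit without the tier. Filled points have an adjusted p under 0.05. Lama3 lies at 1.43 for 3XHMT and -0.90 for Cbx3, and Col4a5 at -0.65 and 1.01.

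The genes whose pattern over the 8 arrays was most like that of a member were found by Pearson correlation of the brightest probe sets of 18193 genes. The arrays share groups and tiers, which both enter these correlations. For Col4a1 the nearest were Myo7b (r = 0.981), Oas1h (r = 0.972) and Gm12789 (r = 0.965), and Col4a2 ranked 5 (r = 0.956). For Nid1 they were Syk (r = 0.995), Ctnnd2 (r = 0.977) and Mrpl39 (r = 0.976). Syk read 8.04, 8.08 and 8.25 in control cells, 8.08 and 8.08 in 3XHMT cells and 7.71, 7.70 and 7.70 in Cbx3 cells. As for Nid1, all 3 Cbx3 arrays were the lowest. For Thbd they were Tcim (r = 0.974), Sccpdh (r = 0.968) and Ppp1r9a (r = 0.967), and Col4a2 ranked 48 (r = 0.886). Among the members themselves Lamb1 and Lamc1 (r = 0.789) and Lama1 and Lamc1 (r = 0.782) had the highest correlations after the collagen IV pair and the pair of Thbd and Col4a2, and Sparc and Nid1 the lowest (r = -0.786).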

How the data were processed

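RNA of 8 samples was hybridised to Affymetrix mouse arrays of 45101 probe sets. The deposited values are log2 signals per probe set, which the authors produced by RMA according to the submitters' processing notes. The version and settings of RMA were not given there or in the labels. RMA makes array distributions equal, so a shift shared by most genes would not be seen. Leaving out 64 control probe sets, 45037 were tested. Symbols came from the platform annotation (of those deposited, 34958 with 1 gene, 932 with several, 9211 not listed), and no member shares a probe set with another gene. The number of arrays limits the precision.

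Group means were fitted over all 8 arrays with limma 3.58.1 (R 4.3.3, lmFit and eBayes, 5 residual degrees of freedom, 3 with the tier), two-sided, with Benjamini-Hochberg adjustment over all probe sets; the script was tested on simulated data. The members, lists and tests were chosen with earlier results of these data known. Named were all members, the called genes of 8 lists (120 of 130 entries measured) with the lowest p, the 3 genes most like Col4a1, Nid1 and Thbd, and the siRNA targets. Same-numbered control and Cbx3 arrays deviated together (correlations 0.51, 0.62 and 0.74). In these groups the numbers coincide with the tiers, so a pairing by number cannot be told apart from the tier. Same-numbered control and 3XHMT arrays did not deviate together (0.05 and -0.66), where the deviations of the 3XHMT arrays mirror each other. Alternatives were the 18S tier or replicate number as a block, 1 probe set per gene, cyclic loess, leaving out dim probe sets, only the groups compared and leaving out each array. Added after seeing the data were the replicate block on control and Cbx3 arrays alone and the tier block with each array left out.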

Additional observations from a re-analysis of the deposited data

How the results depend on the processing

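Calls depended on how the spread between arrays was modelled more than on scaling. With the 18S tier as a block, 2, 4 and 9 member probe sets were called in 3XHMT minus control, Cbx3 minus control and 3XHMT minus Cbx3, in place of 0, 1 and 2. With the replicate number as a block the counts were 0, 1 and 1. With that block on control and Cbx3 arrays alone, where the numbers coincide with the tiers, 4 were called in Cbx3 minus control. Taking 1 probe set per gene gave 1 call in 3XHMT minus control, and fitting only the groups compared gave 0 in Cbx3 minus control and 1 in 3XHMT minus Cbx3. Cyclic loess and leaving out dim probe sets, which kept 14 of the 22, changed none of the 3 counts.

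Leaving out 1 array at a time gave 0 to 0, 0 to 0 and 0 to 1 calls without the tier, and 0 to 4, 2 to 4 and 4 to 10 with it. Over all probe sets the counts without the tier were 25, 35 and 238, and leaving out 1 array moved them to 1 to 23, 0 to 14 and 6 to 186; with the tier they were 315, 1547 and 2099, and leaving out 1 array moved those to 72 to 332, 452 to 1776 and 930 to 1639, with the replicate block 67, 153 and 433, and fitting only the groups compared 3, 14 and 80. The tier fit has 3 residual degrees of freedom and rests on 2 arrays in the middle tier, so that leaving out either gives the same fit. For Cbx3 minus control, leaving out either 3XHMT array also gives the same fit, that of control and Cbx3 arrays alone.

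No called difference of a member changed its sign under any alternative. The uncalled Lamb1 difference of 3XHMT from control, -0.07, was 0.059 with the tier and 0.10 with the replicate block, and -0.37 to 0.24 when 1 array was left out. In such fits, with and without the tier, uncalled differences also crossed 0 in 3XHMT minus control for Nid1 (-0.58 to 0.0073), Lamc1 (-0.032 to 0.37), Sparc (-0.26 to 0.52), Gata6 (-0.26 to 0.34) and Sox17 (-0.36 to 0.018), in Cbx3 minus control for Col4a1 (-0.0037 to 0.67), Lama1 (-0.47 to 0.025), Lamc1 (-0.17 to 0.024), Thbd (-0.10 to 0.032), Gata6 (-0.40 to 0.0040) and Sox17 (-0.30 to 0.14), and in 3XHMT minus Cbx3 for Gata6 (-0.083 to 0.52) and Sox17 (-0.41 to 0.079). These sign changes were searched for only at the brightest probe set of each gene. Other member probe sets crossed 0 as well. An example is Nid1 at 1448469_at in 3XHMT minus control (-0.046 to 0.36 with 1 array left out, without the tier). The cause of these shifts was not tested.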

Other observations

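Of the endothelial list 0 probe sets were called without the tier in any comparison with limma. With the tier as a block, 2 were called higher and 1 lower in Cbx3 than in control cells, the lower one of Tek. Without the tier Eng (1432176_a_at, 0.37 higher) and Vwf had a lower adjusted p in that comparison than Tek (0.245 and 0.376, limma). Tek (1418788_at), the receptor of the angiopoietins, read 7.98, 6.45 and 7.5 in control cells, 7.26 and 7.83 in 3XHMT cells and 6.54, 5.27 and 5.97 in Cbx3 cells. As for Lamb1, the array of the high tier was the lowest in each group, and control and Cbx3 arrays overlapped. Cbx3 minus control was -1.39 ± 0.44 (SE; limma adjusted p = 0.433), and with the tier as a block Tek fell 2.61-fold (adjusted p = 0.000973, limma). In the same fit Vwf and Esam rose in Cbx3 cells, by 0.51 and 0.89 (adjusted p = 0.027 and 0.038, limma). Vwf lay at 3.7 to 4.6, below the array median on every array, where a signal cannot be told from unspecific hybridisation.

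Of the fibroblast list 0 probe sets were called against control cells with limma, with or without the tier. Between 3XHMT and Cbx3 cells, with the tier as a block, Dcn was higher in 3XHMT cells by 1.00 (adjusted p = 0.020, limma), and Col3a1, Twist1, Prrx1 and Postn were lower, by 0.86, 0.85, 0.55 and 0.53 on the log2 scale. Dcn, a small proteoglycan of connective tissue, read 6.0, 6.20 and 6.51 in control cells, 7.56 and 6.94 in 3XHMT cells and 6.05, 6.27 and 6.18 in Cbx3 cells. Its direction was thus opposite to that of the other fibroblast genes named, but their signals were low. Twist1 (4.37 to 5.58), Postn (4.40 to 5.08) and Prrx1 at 1439774_at (2.71 to 3.52) lay below the array median on every array. Col3a1 lay at 4.33 to 5.93. At this level a signal cannot be told from unspecific hybridisation.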
